A study of Mus musculus with 6 samples.

Results

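The transcripts described here are 10 genes of the negative feedback on the kinase ERK and of the PEA3 group of ETS transcription factors: Dusp4, Dusp5, Dusp6, Spry2, Spry4, Spred1, Spred2, Etv1, Etv4 and Etv5. They were chosen by gene symbol as a readout of ERK activity, together with the contrasts in which to read them, which are the conditions within each replicate number and replicate 3 against replicates 1 and 2. All 10 were found among the 16640 genes of the files, and all 10 were among the 12516 genes that passed the filter on low counts. Both contrasts belong to that choice, so the members are given with values and standard errors and without p-values.

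When a growth factor receptor activates Ras, the kinases Raf, MEK and ERK are switched on in turn, and ERK then induces the genes that restrain it. DUSP phosphatases remove phosphate from ERK and related kinases, Sprouty and Spred proteins hold back Ras and Raf, and Etv1, Etv4 and Etv5 pass the signal on to further genes once ERK has relieved their repression by Capicua (Cic). In pancreatic β-cells ERK responds to glucose and to growth factors, and the ubiquitin ligase COP1 keeps the protein levels of the PEA3 factors low.

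RNA was sequenced on the BGISEQ-500 platform from MIN6, a mouse β-cell line derived from an insulinoma, in 3 control and 3 Thada-activated libraries. The Thada-activated cells carried a catalytically dead Cas9 fused to the activator VP64, delivered by lentivirus with puromycin selection. A second lentivirus, selected with G418, gave them MS2-P65-HSF1 of the synergistic activation mediator (SAM) and an sgRNA to the Thada promoter. Control cells carried dead Cas9 with a non-targeting sgRNA. The cells were stable lines grown in high-glucose medium, with no cloning step described. The study describes its in vitro work in general as at least 3 independent experiments and gives n = 3 for the sequencing, without saying what a replicate number stands for. The standard errors here measure the spread between libraries. Repeat selections of cells within a condition are not described, so the condition and the selected line cannot be told apart. The libraries totalled 17272834, 17166511 and 17689611 counts in control replicates 1 to 3 and 17727004, 17385036 and 17224631 counts in those of Thada-activated cells. Levels are given in CPM, counts scaled to a common library size normalised by TMM, unless FPKM is named. A single count was 0.0564 to 0.0583 CPM on library totals before TMM, and the lowest count of any member in any library was 27.

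Thada, the target of the activator, had 28.1, 28.9 and 17.2 CPM in control replicates 1, 2 and 3 and 57.3, 56.2 and 49.1 CPM in Thada-activated replicates 1, 2 and 3. No library of one group reached the other, with means of 24.7 ± 6.53 and 54.2 ± 4.43 CPM (SD, n = 3 each; two-sided exact permutation test, p = 0.1, the smallest that 3 against 3 libraries can give). The log2 fold change was 1.13 (SE 0.22) without a block and 1.15 (SE 0.10) with the replicate number as a block, and higher in 3 of 3 pairs. In replicates 1 and 2 alone it was 0.99 (SE 0.07). In edgeR's quasi-likelihood test with Benjamini-Hochberg adjustment, the adjusted p was 1 without and 0.00041 with the block, and ranged from 1.47e-32 to 1 over the alternatives.

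The cell type of the label was checked on 15 β-cell markers. Ins2 was the most abundant of them, with a mean of 72200 CPM, and Slc2a2, the glucose transporter of rodent β-cells, was near 0, between 0.0574 and 0.512 CPM. Of 17 listed markers of other islet, exocrine, stromal, endothelial and immune cells, 13 were in the files and 7 passed the filter, and the most abundant was Sst with a mean of 114 CPM. Of those that did not pass, Sox9 and Cdh5 each had at most 0.0586 CPM in any library, Ghrl at most 0.116 and Col3a1 at most 0.228 CPM. The endothelial marker Pecam1 had 1.26 and 1.08 CPM in control and Thada-activated replicate 3 and 0.338 to 0.46 CPM in the other libraries. Dcn had 0.746 and 0.739 CPM in the same 2 libraries and 0.0582 to 0.293 CPM in the others. These differences were not tested.

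The libraries of replicate 3 stood apart from the others in both groups. The first principal component, which separated them, took 80.1% of the variance between libraries. The biological coefficient of variation was 0.253 with the condition alone in the model, 0.063 with the replicate number as a block and 0.0543 with a term for replicate 3. The values of the members between conditions are therefore given with all 6 libraries, with the block, and in replicates 1 and 2 alone. The β-cell markers summed to 123000, 111000 and 143000 CPM in control replicates 1, 2 and 3 and to 117000, 115000 and 126000 CPM in the matching Thada-activated libraries. Of their 14 tested genes, 1 was called higher (Ins1) and 5 lower in replicate 3 (Pdx1, Nkx2-2, Mafa, Slc30a8 and Pcsk1), and no gene of the list was at 0 counts in any library. The markers of other cells summed to 203, 171 and 118 CPM in control and to 191, 180 and 124 CPM in Thada-activated replicates 1, 2 and 3. Of their 7 tested genes, 2 were called higher (Ppy, Col1a1) and 3 lower (Sst, Krt19, Cd68) in replicate 3, and 1 to 3 genes of that list were at 0 counts in each library. Over all 12516 tested genes 15.7% were called higher and 15.4% lower in replicate 3.

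Between conditions edgeR called 0 genes of either marker list with or without the block, and DESeq2 called 0. An unadjusted p under 0.05 was found for 0 of 14 β-cell markers and 1 of 7 markers of other cells without the block (101 of 12516 tested genes), and for 1 and 3 with it (1302 of 12516). The median log2 fold change without the block was 0.10 over the β-cell markers and 0.34 over the 7 markers of other cells, of which 6 lay above 0. Krt19, a keratin of ductal cells, had 0.527, 0.524 and 0.344 CPM in control and 2.36, 1.5 and 1.02 CPM in Thada-activated replicates 1, 2 and 3. It was higher in 3 of 3 pairs without overlap of the groups, with a log2 fold change of 1.79 (SE 0.42) and of 1.78 (SE 0.32) with the block. In replicates 1 and 2 alone, with or without the block, Krt19 was the 1 marker called (1.87, SE 0.37, without the block). Col1a2 had 1.23, 1.45 and 0.803 CPM in control and 1.91, 1.67 and 1.93 CPM in Thada-activated replicates 1, 2 and 3. It too was higher in each pair without overlap, with 0.67 (SE 0.28) with the block. Ppy and Cd68 were higher in each pair with overlap of the groups, and Gcg, Sst and Col1a1 went both ways. Krt19, Col1a2 and these markers are named after their values were seen. The part of these markers in the values of the ERK feedback genes was not tested. In bulk RNA, fewer cells with a transcript and less of it per cell cannot be told apart.

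**Figure D1:**
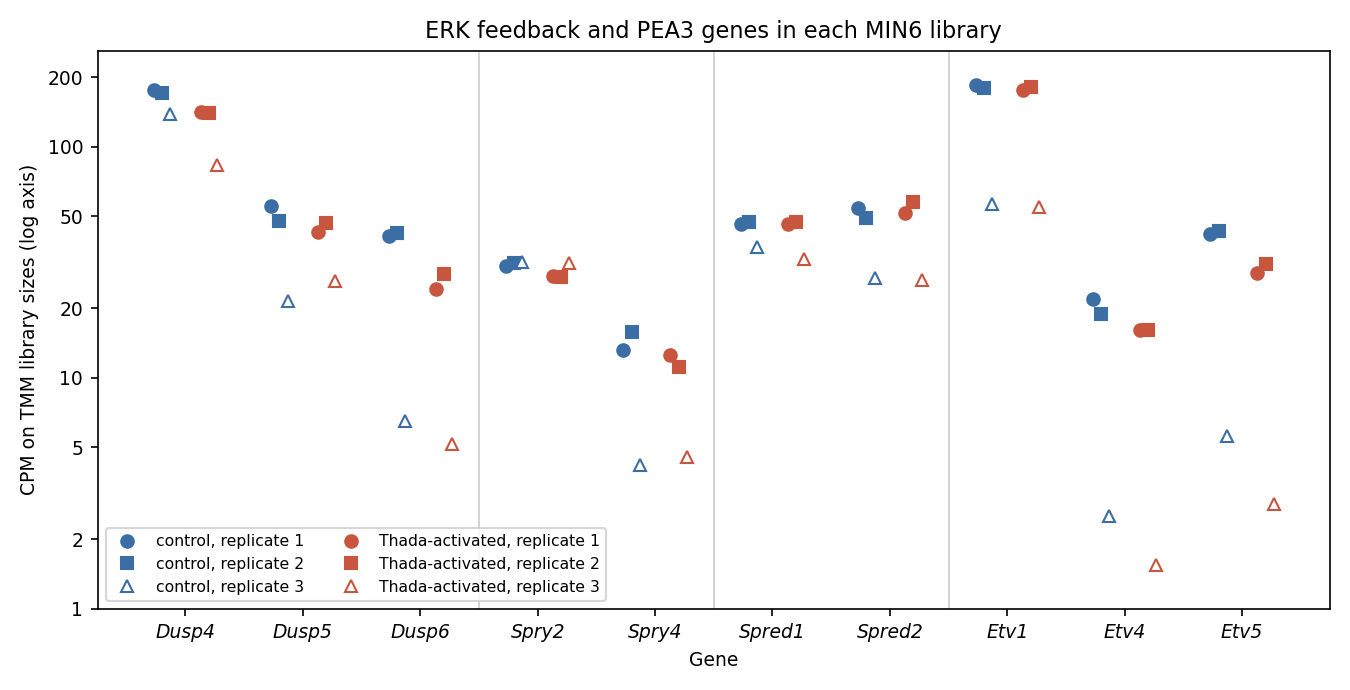
CPM of the 10 genes in each of the 6 libraries on a log axis, with control libraries in blue, Thada-activated libraries in red and replicate 3 as open triangles. For every gene but Spry2 both triangles lie below the other 4 points, and for Etv4 they stand at 2.52 and 1.54 CPM against 16.1 to 21.9 CPM.

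On the length-scaled FPKM values, Dusp4 had the highest level of the group in replicates 1 and 2, at 76.5 and 75.5 FPKM in control and 62.2 and 61.8 FPKM in Thada-activated libraries. Next came Dusp5 (54.8 and 48.4 FPKM) and Etv1 (50.9 and 50.2 FPKM) in control, whose ranges overlapped. In Thada-activated libraries Etv1 (49.4 and 50.9 FPKM) lay above Dusp5 (42.8 and 46.6 FPKM). Dusp6 stood beside Spry2 in control, at 15.4 and 16.2 against 15.5 and 16.3 FPKM, above Spred2 at 14.9 and 13.2 FPKM. In Thada-activated libraries Dusp6 (9.21 and 10.6 FPKM) lay below both Spry2 (14.3 and 14.0 FPKM) and Spred2 (14.3 and 16.1 FPKM), the ranges of which overlapped. The place of Dusp6 in the order thus differed between conditions. Below these, in control, were Etv5 (11.3 and 11.8 FPKM), Etv4 (10.02 and 8.79 FPKM) and Spred1 (7.52 and 7.82 FPKM), with no overlap between them. In Thada-activated libraries Etv5 (7.74 and 8.52 FPKM) and Spred1 (7.67 and 7.77 FPKM) overlapped, and Etv4 (7.49 and 7.46 FPKM) lay just below. Spry4 was the lowest in both, at 2.94 and 3.54 FPKM in control and 2.83 and 2.5 FPKM in Thada-activated libraries. With 2 libraries per condition these orders carry no test. In replicate 3 the order was another. Dusp4 was still highest at a mean of 48.6 FPKM over its 2 libraries, followed by Dusp5 at 23.7, Spry2 at 16.3 and Etv1 at 15.0 FPKM. Spred2 and Spred1 lay at 7.25 and 5.82 FPKM, while Dusp6 at 2.21, Etv5 at 1.14, Spry4 at 0.985 and Etv4 at 0.93 FPKM were the lowest. The order of Etv5, Spry4 and Etv4 by these means held in neither library. In control replicate 3 it was Etv5 (1.49), Etv4 (1.15) and Spry4 (0.93 FPKM). In Thada-activated replicate 3 it was Spry4 (1.04), Etv5 (0.79) and Etv4 (0.71 FPKM). With 2 libraries, one of each condition, no spread within a condition can be given for replicate 3.

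Among the phosphatases, Dusp6 is the cytoplasmic one that is selective for ERK. The gene (NCBI gene 67603) is on chromosome 10, plus strand, 99263231 to 99267489 in GRCm38. Its level was 41.1, 42.4 and 6.48 CPM in control replicates 1, 2 and 3 and 24.3, 28.0 and 5.18 CPM in Thada-activated replicates 1, 2 and 3. Both libraries of replicate 3 were low, and within each replicate number the Thada-activated library was the lower. In replicates 1 and 2 both Thada-activated libraries lay below both control libraries, but over all 6 libraries the groups overlapped because control replicate 3 lay under Thada-activated replicates 1 and 2. The ratio of Thada-activated to control was 0.591, 0.660 and 0.798 in pairs 1, 2 and 3. Between conditions the fitted log2 fold change was −0.65 (SE 0.84) without the block, −0.62 (SE 0.10) with it and −0.68 (SE 0.08) in replicates 1 and 2 alone. It kept its sign with each library left out and ranged from −1.12 without control replicate 3 to −0.20 without Thada-activated replicate 3. Replicate 3 was 5.77-fold lower than replicates 1 and 2 (log2 fold change −2.53, SE 0.11), with a difference of −2.69 within the control and −2.33 within the Thada-activated libraries.

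Dusp4, a nuclear phosphatase of ERK and related kinases (gene 319520, chromosome 8, plus strand, 34807297 to 34819894), had 176, 170 and 138 CPM in control and 141, 140 and 83.6 CPM in Thada-activated replicates 1, 2 and 3. In each pair the Thada-activated library was the lower, and control replicate 3 lay just under Thada-activated replicates 1 and 2, so the groups overlapped. The ratios of Thada-activated to control were 0.803, 0.823 and 0.606 in pairs 1, 2 and 3. Between conditions the log2 fold change was −0.41 (SE 0.23), with the block −0.44 (SE 0.08) and in replicates 1 and 2 alone −0.30 (SE 0.05). It was −0.20 with Thada-activated replicate 3 left out and −0.53 at the other end, with Thada-activated replicate 1 left out. The difference with replicate 3 was the smallest among the 3 phosphatases, with a log2 fold change of −0.53 (SE 0.08), or 1.44-fold lower. It differed between the conditions, at −0.33 in control and −0.75 in Thada-activated libraries, and this difference was not tested.

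Dusp5 is a nuclear phosphatase selective for ERK, on the plus strand of chromosome 19 from 53529109 to 53542431 (gene 240672). It had 55.2, 47.7 and 21.4 CPM in control replicates 1, 2 and 3 and 42.6, 46.5 and 26.3 CPM in Thada-activated replicates 1, 2 and 3. Its Thada-activated library was the lower in pairs 1 and 2 and the higher in pair 3, with log2 differences of −0.37, −0.04 and 0.30. Over all 6 libraries the log2 fold change between conditions was −0.11 (SE 0.39), and it was −0.06 (SE 0.10) with the block and −0.21 (SE 0.07) in replicates 1 and 2 alone. Its sign turned with control replicate 1 left out (0.16), with control replicate 2 left out (0.01) and with Thada-activated replicate 3 left out (0.10), and in the blocked fit without the libraries numbered 1 (0.12). The other end of the range was −0.42, without control replicate 3. Replicate 3 was 2.01-fold lower than the others (log2 fold change −1.0, SE 0.11). In the annotation used here (GENCODE M21), 547 of the 2473 exon bases of Dusp5 (22.1%) are shared with AC137853.2 on the opposite strand, a gene that is not among those of the files. The strandedness of the libraries is not stated.

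Of the Sprouty proteins, which act between the receptor and Raf, Spry4 is the product of a gene on the minus strand of chromosome 18 from 38586247 to 38601415 (gene 24066). It had 13.2, 15.7 and 4.19 CPM in control replicates 1, 2 and 3, and 12.5, 11.1 and 4.55 CPM in Thada-activated replicates 1, 2 and 3. Both libraries of replicate 3 were far below the other 4, with 73 and 80 counts against 193 to 269. Within pairs the log2 differences between conditions were −0.08, −0.50 and 0.12, so the pair of replicate 3 pointed the other way. The log2 fold change between conditions was −0.23 (SE 0.58), −0.20 (SE 0.13) with the block and −0.29 (SE 0.11) in replicates 1 and 2 alone. It was 0.11 without control replicate 2 and 0.10 without Thada-activated replicate 3, and −0.00 in the blocked fit without the libraries numbered 2. Without control replicate 3 it was −0.62, and without Thada-activated replicate 1 −0.49 and replicate 2 −0.37. Replicate 3 was 2.99-fold lower (log2 fold change −1.58, SE 0.15), with −1.78 within control and −1.37 within Thada-activated libraries.

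Spry2 was the 1 member that did not share this pattern (gene 24064, chromosome 14, minus strand, 105891947 to 105896819). Its levels were 30.4, 31.3 and 31.8 CPM in control replicates 1, 2 and 3 and 27.6, 27.2 and 31.5 CPM in Thada-activated replicates 1, 2 and 3. In CPM its replicate 3 libraries were the highest of the 6 by a small margin, while in FPKM control replicate 2 (16.28) lay above control replicate 3 (16.24). The log2 fold change of replicate 3 was 0.12 (SE 0.07), with 0.05 within control and 0.20 within Thada-activated libraries. It was 0.05 without Thada-activated replicate 3 and 0.20 without control replicate 3. The Thada-activated library was the lower in each pair, with log2 differences of −0.14, −0.20 and −0.02. The fitted difference was −0.12 (SE 0.11) without the block, −0.12 (SE 0.08) with it and −0.17 (SE 0.08) in replicates 1 and 2 alone. With 1 library left out it ranged from −0.19 (Thada-activated replicate 3) to −0.08 (Thada-activated replicate 2).

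The Spred proteins bind neurofibromin and keep Ras inactive at the membrane. Spred1 (gene 114715, chromosome 2, plus strand, 117121374 to 117182279) had 46.1, 47.2 and 36.8 CPM in control and 46.3, 47.4 and 32.8 CPM in Thada-activated replicates 1, 2 and 3. Both conditions were within 0.01 of each other on the log2 scale in pairs 1 and 2, and −0.17 apart in pair 3. The log2 fold change between conditions was −0.04 (SE 0.18), −0.05 (SE 0.07) with the block and 0.01 (SE 0.07) in replicates 1 and 2 alone. It was above 0 without control replicate 1 (0.01), control replicate 2 (0.02) or Thada-activated replicate 3 (0.11), and lowest without control replicate 3 (−0.15). Replicate 3 was 1.35-fold lower, with a log2 fold change of −0.43 (SE 0.07). Spred2 (gene 114716, chromosome 11, plus strand, 19924375 to 20024026) had 54.2, 48.9 and 27.1 CPM in control and 51.8, 57.7 and 26.6 CPM in Thada-activated replicates 1, 2 and 3. Replicate 3 was 1.98-fold lower (log2 fold change −0.99, SE 0.08), nearly alike in control (−0.92) and in Thada-activated libraries (−1.04). Between conditions the log2 fold change of Spred2 was 0.06 (SE 0.37), 0.05 (SE 0.08) with the block and 0.09 (SE 0.07) in replicates 1 and 2 alone. It turned negative without control replicate 3 (−0.19), Thada-activated replicate 1 (−0.04) or Thada-activated replicate 2 (−0.15), and in the blocked fit without the libraries numbered 2 (−0.05). It was highest without Thada-activated replicate 3 (0.33).

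The PEA3 factors are transcription factors whose genes are among the most direct transcriptional outputs of ERK. Etv5 (gene 104156, chromosome 16, minus strand, 22381309 to 22439719) had 41.9, 43.1 and 5.62 CPM in control and 28.3, 31.2 and 2.84 CPM in Thada-activated replicates 1, 2 and 3. Both Thada-activated libraries of replicates 1 and 2 lay below both controls of those numbers, and the pair of replicate 3 lay far below all of them. The ratios of Thada-activated to control were 0.676, 0.725 and 0.506 in pairs 1, 2 and 3. The log2 fold change between conditions was −0.54 (SE 1.00) without the block, −0.58 (SE 0.10) with it and −0.51 (SE 0.07) in replicates 1 and 2 alone. With the block this is 1.49-fold lower, just inside the threshold of 1.5. The blocked fit passed that threshold without the libraries numbered 1 (−0.61) or those numbered 2 (−0.68), but Etv5 was not called in either. Without the block, the value was −0.02 when Thada-activated replicate 3 was left out and −1.03 when control replicate 3 was left out. Replicate 3 was 8.59-fold lower than replicates 1 and 2 (log2 fold change −3.10, SE 0.12).

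Etv4 (gene 18612, chromosome 11, minus strand, 101769742 to 101785371) had 21.9, 18.9 and 2.52 CPM in control and 16.1, 16.1 and 1.54 CPM in Thada-activated replicates 1, 2 and 3. In counts these were 374, 325 and 44 against 286, 280 and 27. As for Etv5, the Thada-activated library was the lower in each pair (ratios of 0.735, 0.851 and 0.608) and the replicate 3 libraries were the lowest. Fitted over the 6 libraries, the log2 fold change between conditions was −0.36 (SE 1.01), −0.38 (SE 0.11) with the block and −0.34 (SE 0.10) in replicates 1 and 2 alone. Without the block it was 0.07 when control replicate 1 was left out and 0.16 when Thada-activated replicate 3 was. It was −0.86 without control replicate 3 and −0.71 without Thada-activated replicate 1 or 2. Replicate 3 was 8.99-fold lower (log2 fold change −3.17, SE 0.15), by −3.01 within control and −3.39 within Thada-activated libraries.

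Etv1 (gene 14009, chromosome 12, plus strand, 38779380 to 38870484) had 184, 179 and 56.7 CPM in control and 176, 181 and 54.9 CPM in Thada-activated replicates 1, 2 and 3. Its levels were almost the same in the conditions within every pair, with log2 differences of −0.06, 0.02 and −0.05, and replicate 3 lay far below the rest in both. The log2 fold change between conditions was −0.02 (SE 0.60), −0.03 (SE 0.06) with the block and −0.02 (SE 0.05) in replicates 1 and 2 alone. The sign turned without control replicate 1 (0.22), control replicate 2 (0.19) or Thada-activated replicate 3 (0.35), and the value was lowest without control replicate 3 (−0.40). Replicate 3 was 3.23-fold lower (log2 fold change −1.69, SE 0.06), by −1.68 in control and −1.70 in Thada-activated libraries. The conditions thus lay within 0.06 of each other on the log2 scale in every pair, closer than for Etv4 or Etv5.

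**Figure D2:**
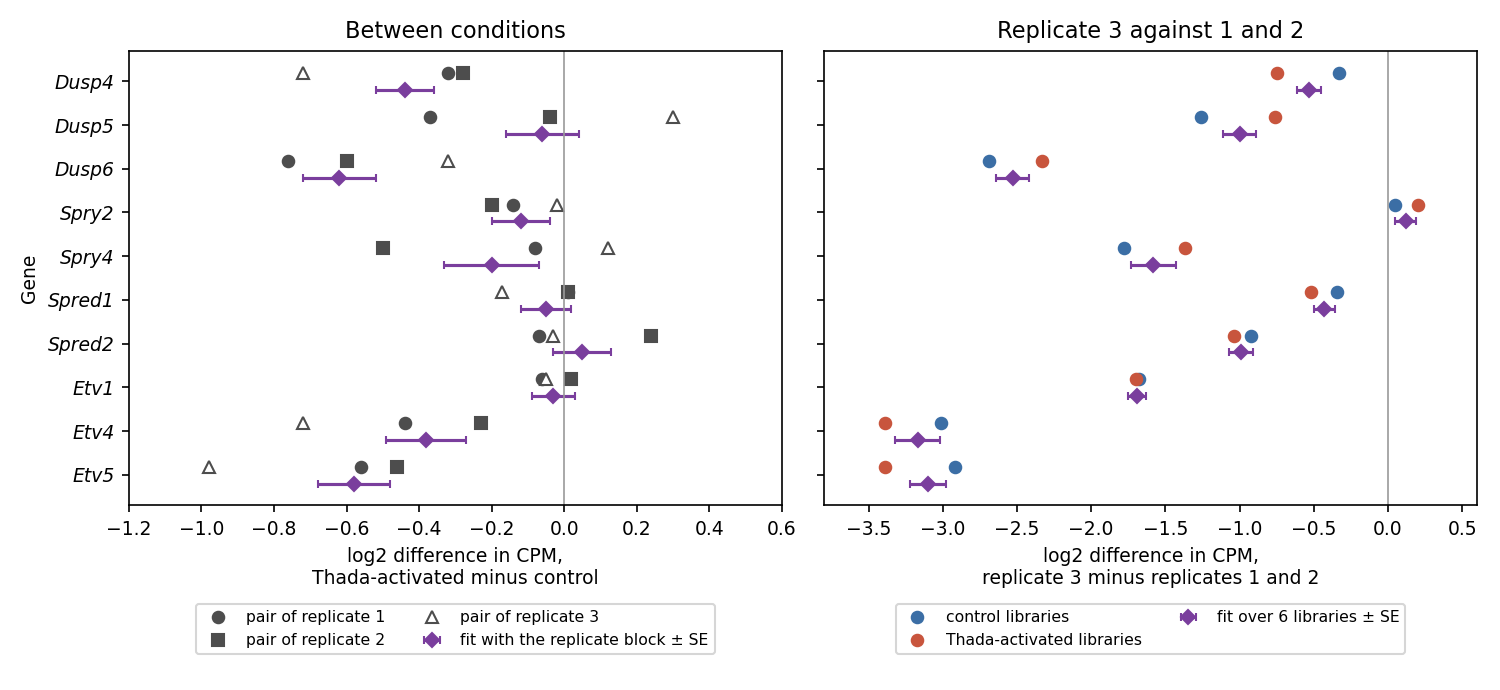
Log2 differences in CPM of the 10 genes between conditions within each pair of the same replicate number (left) and between replicate 3 and the mean of replicates 1 and 2 within each condition (right), with fitted values ± SE as diamonds. On the left Dusp4, Dusp6, Spry2, Etv4 and Etv5 lie below 0 in all 3 pairs, and on the right every gene but Spry2 lies below 0 in both conditions.

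Read over the members, 5 of 10 (Dusp4, Dusp6, Spry2, Etv4 and Etv5) were lower in the Thada-activated library of all 3 pairs, where 2086 of the 12516 tested genes (16.7%) were. For 0 of the 10 did the groups of 3 libraries not overlap, where this held for 676 genes (5.4%). Without a block, edgeR called 0 of the 10, as it called 0 of the 12516 genes (0.0%), with 101 genes at an unadjusted p under 0.05, and DESeq2 called 5 genes and 0 members. A call needed an adjusted p under 0.05 and a fold change over 1.5. With the replicate block 1 member, Dusp6, was called lower, beside 19 genes in all (0.152%). In replicates 1 and 2 alone Dusp6 was again the 1 member called, beside 66 genes (0.527%). In the blocked fit Dusp6 was not called without the libraries numbered 1 (−0.51) or those numbered 2 (−0.62), and it was called without those numbered 3 (−0.68). The median log2 fold change of the members was −0.17 without and −0.16 with the block, against −0.00 over all tested genes in both fits, and 9 of 10 members lay below 0 in each. From the lowest value upwards among the 12516 genes, the blocked values ranked Dusp6 at 68, Etv5 at 84, Dusp4 at 156, Etv4 at 213 and Spry4 at 732. Spry2 ranked 1790, Dusp5 3608, Spred1 4171, Etv1 5003 and Spred2 8339 in that fit. These counts and ranks describe a contrast by which the genes were chosen.

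In replicate 3, both libraries lay below the other 4 for 9 of the 10 members, where this held for 4493 of the tested genes (35.9%). Both lay above the other 4 for Spry2, as for 4495 genes (35.9%). In the fit with condition and replicate 3 as terms, 7 members were called lower (Dusp5, Dusp6, Spry4, Spred2, Etv1, Etv4 and Etv5), beside 1923 genes (15.4%), and 0 were called higher in edgeR or DESeq2, beside 1970 genes (15.7%). Dusp4, Spry2 and Spred1 were not called, and Dusp4 passed the threshold (−0.75) when control replicate 3 was left out. The median of the members was −1.29, against 0.00 over all tested genes with quartiles of −0.37 and 0.38. From the lowest value upwards, Etv4 ranked 18, Etv5 19, Dusp6 44, Etv1 169 and Spry4 217 of 12516. Dusp5 ranked 737, Spred2 765, Dusp4 2218, Spred1 2796 and Spry2 7371.

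The other genes of the pathway were counted in 7 lists of 147 genes, of which 137 were in the files and 113 passed the filter. Between conditions edgeR called 0 of the 113 without the block, with 1 at an unadjusted p under 0.05, and DESeq2 also called 0. With the block 1 of 113 was called, with 12 at an unadjusted p under 0.05, beside 1302 of all 12516 tested genes. That gene was Insrr, a receptor tyrosine kinase related to the insulin receptor, with 67.9, 64.4 and 18.1 CPM in control and 87.4, 96.8 and 37.8 CPM in Thada-activated replicates 1, 2 and 3. It was higher in 3 of 3 pairs, with a log2 fold change of 0.56 (SE 0.57) without the block and 0.63 (SE 0.10) with it. In edgeR's quasi-likelihood test with Benjamini-Hochberg adjustment its p was 0.0337 (range over the alternatives 1.55e-09 to 1). The call of Insrr ended in the blocked fit without the libraries numbered 2 (log2 fold change 0.67) and without those numbered 3, where the log2 fold change was 0.48 and below the fold threshold. Ret, the receptor of GDNF family ligands, had 12.2, 13.3 and 15.8 CPM in control and 20.6, 19.8 and 21.3 CPM in Thada-activated replicates 1, 2 and 3. Its groups did not overlap, and its log2 fold change was 0.58 both without the block (SE 0.14) and with it (SE 0.10), just under the fold threshold. In replicates 1 and 2 alone Ret was the 1 pathway gene called, with a log2 fold change of 0.66 (SE 0.10).

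By list, the median log2 fold change between conditions without the block was 0.03 over 22 receptors and adaptors, −0.03 over 23 genes of the cascade, −0.03 over 8 kinases that ERK activates and −0.00 over 22 other brakes. It was 0.01 over 12 other ETS factors and −0.01 over 11 repressors and degraders of PEA3 factors. Over 15 other transcripts induced by ERK it was −0.09, with 10 of 15 below 0, and −0.08 with the block, with 11 of 15 below 0. The difference of any list from the members was not tested. In the blocked fit 4 of these 15 had an unadjusted p under 0.05, beside 1302 of 12516 tested genes, and all 4 were lower though not called: Egr1 at −0.26 (SE 0.07), Fos at −0.34 (SE 0.11), Fosb at −0.28 (SE 0.12) and Nr4a1 at −0.22 (SE 0.07). Fosb and Nr4a1 are named after their values were seen.

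Egr1, an immediate early gene, had 149, 163 and 63.8 CPM in control and 117, 130 and 60.5 CPM in Thada-activated replicates 1, 2 and 3. Without the block its log2 fold change was −0.29 (SE 0.43), and in replicates 1 and 2 alone −0.34 (SE 0.06). Fos had −0.34 (SE 0.14) without the block and −0.42 (SE 0.11) in replicates 1 and 2 alone. Egr2, at a mean of 1.00 CPM, had 0.61 without (SE 0.28) and with the block (SE 0.31), and 0.39 (SE 0.37) in replicates 1 and 2 alone. The scaffold Ksr1 had −0.24 (SE 0.15), −0.23 (SE 0.08) with the block and −0.19 (SE 0.09) in replicates 1 and 2 alone. For the Ras exchange factor Rasgrf2 these values were −0.24 (SE 0.40), −0.17 (SE 0.10) and −0.36 (SE 0.06). Among the other brakes Spry1 had −0.34 (SE 0.29), −0.34 (SE 0.18) and −0.30 (SE 0.22) in the same order, and Il17rd (Sef) 0.39 (SE 0.25), 0.38 (SE 0.18) and 0.46 (SE 0.19). The kinase Rps6ka3 (RSK2) had −0.13 (SE 0.14), −0.13 (SE 0.06) and −0.17 (SE 0.06). Mknk1 had −0.13 (SE 0.23) and −0.10 (SE 0.09) with the block, and 0.05 (SE 0.07) in replicates 1 and 2 alone, where its sign turned. None of these was called in the 3 fits.

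In replicate 3, 25 of the 113 pathway genes were called (22.1%), 17 higher and 8 lower (7.08%), beside 3893 of the 12516 tested genes, of which 15.7% were higher and 15.4% lower. By list, the counts higher and lower were 8 and 1 of 22 receptors and adaptors, 2 and 2 of 23 cascade genes, 1 and 0 of 8 ERK-activated kinases, and 2 and 3 of 22 other brakes. Of the 15 other transcripts induced by ERK, 4 were called higher and 2 lower. The medians of these lists were 0.43, 0.11, 0.19, −0.07 and −0.02 in that order, against 0.00 over all tested genes and −1.29 over the members. Most called receptors and adaptors were higher in replicate 3, where all called members were lower. Some of these rested on few counts in replicates 1 and 2, with 1 to 11 for Fgfr4 and 9 to 18 for Erbb3. Others did not, such as Gab2 with at least 291 counts in every library. Summed over that list, the level was 1140 to 1180 CPM in replicates 1 and 2, against 1210 and 1220 CPM in replicate 3. Ntrk2, its most abundant gene at a mean of 265 CPM, had 0.09 (SE 0.06) and was not called.

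The receptor Fgfr3 had 2.28, 1.63 and 11.0 CPM in control and 1.86, 1.96 and 12.9 CPM in Thada-activated replicates 1, 2 and 3, with a log2 fold change of replicate 3 of 2.62 (SE 0.15). Erbb3 (2.14, SE 0.26), the neurotrophin receptor Ntrk3 (1.65, SE 0.13) and the docking protein Gab2 (0.82, SE 0.08) were also higher, and Insrr was lower (−1.54, SE 0.11). In the cascade the GTPases Rras (2.0, SE 0.10) and Rras2 (0.91, SE 0.08) were higher, and Hras (−0.65, SE 0.07) and Rasgrf2 (−1.02, SE 0.11) lower. The ribosomal S6 kinase Rps6ka1 was higher (0.61, SE 0.07), and was under the threshold without Thada-activated replicate 3 (0.58), whereas Mknk1 (0.49, SE 0.09) passed it without that library (0.70). Among the other brakes Spred3 (−1.03, SE 0.09), Dusp3 (−0.64, SE 0.06) and Cbl (−0.61, SE 0.07) were lower, and Rasal1 (0.82, SE 0.20) and Dusp1 (0.65, SE 0.09) higher. Cbl was not called without control replicate 3 (−0.50), with library sizes without the 20 top genes (−0.57) or in limma on log2(FPKM + 1) (−0.49) and log2(FPKM + 0.1) (−0.57). Limma on log2(FPKM + 1) also ended the calls of Rasal1 (0.32) and Rps6ka1 (0.56). Dusp1 was not called without control replicate 2 (0.58) or control replicate 3 (0.45). Spry1, not called at 0.49 (SE 0.18), was called without Thada-activated replicate 1 (0.60).

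The other transcripts induced by ERK went both ways in replicate 3. Egr1 was lower (−1.16, SE 0.08), as was Vgf, a secreted neuroendocrine protein, with 452, 407 and 229 CPM in control and 415, 477 and 202 CPM in Thada-activated replicates 1, 2 and 3 (−1.02, SE 0.08). Ier3 (1.63, SE 0.10), Myc (1.20, SE 0.13) and Junb (0.85, SE 0.07) were higher. Ier3 had 7.79, 6.63 and 23.0 CPM in control and 6.48, 6.56 and 19.6 CPM in Thada-activated replicates 1, 2 and 3, so that its replicate 3 libraries were its highest, where those of the PEA3 genes were their lowest.

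Of the 12 other ETS factors and of the 11 repressors and degraders of PEA3 factors, edgeR and DESeq2 called 0 in replicate 3, with 7 and 8 genes at an unadjusted p under 0.05 in edgeR, beside 8893 of 12516 tested genes, and the medians were 0.10 and −0.19. The largest values of the ETS factors were those of Elf3 (0.58, SE 0.09) and Elk3 (0.55, SE 0.06). With library sizes without the 20 top genes, Elf3 (0.62), Elk3 (0.59) and Cop1 (0.61) passed the threshold and were called. Elf3 also passed it without control replicate 2 (0.61), control replicate 3 (0.67) or Thada-activated replicate 1 (0.59), and Elk3 without control replicate 3 (0.62). Elf4, which was lower in replicate 3 (−0.51, SE 0.08) and not called, was called without control replicate 3. Between conditions Etv6 (0.16, SE 0.12, and SE 0.08 with the block) and Gabpa (−0.15, SE 0.12, and SE 0.07 with the block) had the largest, the same in both fits. Cop1, which encodes the ligase that degrades PEA3 factors, had 83.0, 93.1 and 140 CPM in control and 82.5, 87.5 and 118 CPM in Thada-activated replicates 1, 2 and 3. Its replicate 3 libraries were the highest of the 6, with a log2 fold change of 0.57 (SE 0.07) under the threshold, and it was also called without control replicate 2 (0.59), Thada-activated replicate 2 (0.60) or Thada-activated replicate 3 (0.67). Between conditions Cop1 had −0.13 (SE 0.24), −0.12 (SE 0.07) with the block and −0.05 (SE 0.06) in replicates 1 and 2 alone. The substrate adaptor Trib1 had −0.48 (SE 0.07) in replicate 3, and Trib2 had −0.15 between conditions, without (SE 0.17) and with the block (SE 0.07). Cic, the repressor of PEA3 genes, had 202, 186 and 183 CPM in control and 191, 205 and 173 CPM in Thada-activated replicates 1, 2 and 3, and −0.14 (SE 0.06) in replicate 3. Cic is named outside the rule for named genes, after its values were seen.

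For Dusp6, Spry4 and Etv5 the 5 genes with the most similar pattern were listed by the Pearson correlation of log2 CPM over the 6 libraries, among 10714 genes with a mean of at least 5 CPM. The libraries fall into separate clusters, replicate 3 and the others, so a high value mainly states that a gene shares this split. The genes most like Dusp6 were Edem2, Rps6ka2, Ranbp2, Fam208b and Faxc (r = 0.998 to 0.999, n = 6). Those most like Spry4 were Ecpas, Gramd1b, Nrd1, Wdr60 and Ufm1 (r = 0.998 to 0.999, n = 6), and among those most like Etv5 were Zswim5, Traf3, Wnk1 and Hyou1 (r = 0.999 for each, n = 6). The size of the difference was not shared. Edem2 had 102, 102 and 70.4 CPM in control and 92.9, 95.2 and 67.8 CPM in Thada-activated replicates 1, 2 and 3, a narrower span than that of Dusp6. Hyou1 had 681, 678 and 393 CPM in control and 603, 641 and 318 CPM in Thada-activated replicates 1, 2 and 3.

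RefSeq promoters (GRCm38.p6, 250 bases before to 50 after each start) were searched for 7 of the 10 members, 9 promoters in all, with 2 each for Etv1 and Etv5. The set searched held no promoter of Dusp4, Spry4 or Etv4, so the motif counts do not cover these members. Whether they have a RefSeq promoter outside that set is not reported here. On both strands, 0 of the 9 held the ETS motif CCGGAAGT, which 3.89% of all 32851 promoters hold. Also 0 held the octamers TGAATGAA and TGAATGGA bound by Cic (1.30% and 1.21% of all promoters), the CRE TGACGTCA (1.79%) or the AP-1 motif TGANTCA (7.81%). The ETS core GGAA, contained in CCGGAAGT, was in 8 of the 9 and in 96.0% of all promoters. The letters TGAATG, with which both Cic octamers begin and which were searched after the promoters had been seen, were in the promoters of Dusp5 (at −37 from the start) and Dusp6 (at −133). They were found 3 times in the downstream promoter of Etv5 (at −242, −198 and −129), and 12.7% of all promoters hold them. A match is a description of letters and not a site. The promoters with these letters are shown 5′ to 3′, since they include those of Dusp6 and Etv5, the lowest members in the blocked values, with TGAATG or its reverse complement in capitals. They are Dusp5 (chr19:53528895-53529194, plus strand), Dusp6 (chr10:99262981-99263280, plus strand) and Etv5 (chr16:22438319-22438618, minus strand).
Dusp5: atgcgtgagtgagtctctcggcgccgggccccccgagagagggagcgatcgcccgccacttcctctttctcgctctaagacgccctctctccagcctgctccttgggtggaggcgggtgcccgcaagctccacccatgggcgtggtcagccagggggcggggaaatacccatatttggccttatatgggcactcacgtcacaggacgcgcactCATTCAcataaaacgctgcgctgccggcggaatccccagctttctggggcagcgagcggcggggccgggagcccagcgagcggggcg
Dusp6: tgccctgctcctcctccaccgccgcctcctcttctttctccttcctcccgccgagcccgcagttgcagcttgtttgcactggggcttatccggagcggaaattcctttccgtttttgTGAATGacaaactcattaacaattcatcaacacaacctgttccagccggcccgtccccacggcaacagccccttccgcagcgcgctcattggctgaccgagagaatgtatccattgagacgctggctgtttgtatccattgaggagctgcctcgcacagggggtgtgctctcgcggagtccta
Etv5: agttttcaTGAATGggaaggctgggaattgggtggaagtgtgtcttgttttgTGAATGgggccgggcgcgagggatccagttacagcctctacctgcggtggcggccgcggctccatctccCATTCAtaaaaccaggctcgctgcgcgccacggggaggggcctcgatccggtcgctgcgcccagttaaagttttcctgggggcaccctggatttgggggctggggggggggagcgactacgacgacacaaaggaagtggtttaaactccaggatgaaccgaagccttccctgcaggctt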

How the data were processed

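The authors deposited, for each library, estimated counts of 16640 known genes, and FPKM, which scales them by gene length and library size. Per the labels, the processing used Bowtie2, RSEM and DESeq2 on GRCm38, with versions not given in the sources used here. The fold changes and p-values of the authors' table were not used here, and 1 overflow line of that table was left out. Between 91.09% and 91.95% of the gene values of a library, zeros included, were exactly whole, and the others were rounded. The labels gave the group and number of each library.

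Genes kept by filterByExpr were normalised by TMM and tested in edgeR 4.0.16 (R 4.3.3) with its robust quasi-likelihood test, with p-values adjusted by Benjamini-Hochberg over all 12516 tested genes. A call required an adjusted p under 0.05 and a fold change over 1.5. The contrast of replicate 3 had the condition as a further term. Thada was also compared by an exact permutation test. The members and lists were chosen with earlier results of these data known. The pathway genes named were, per list, up to 4 called genes by adjusted p and the 2 with the largest change at a mean of at least 1 CPM in each contrast. The genes most like Dusp6, Spry4 and Etv5 were taken by correlation, and 1 gene that this covers is not reported here. Coordinates are from GENCODE M21.

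Whether libraries of the same number were made together is not stated, and numbers were taken as pairs by the rule that chose the genes. After removal of each gene's mean within a condition, libraries of like number in the 2 conditions correlated across genes at 0.667, 0.671 and 0.869 for numbers 1, 2 and 3. Crossing 1 and 2 gave 0.705 and 0.726, and crossing with 3 gave −0.784 to −0.766. The numbers thus separate replicate 3 but not replicates 1 and 2 from each other. No pair of libraries within a group was a duplicate (chi-square per degree of freedom 1.83 to 133). The lowest values were those of replicates 1 and 2, at 1.83 in Thada-activated and 4.41 in control libraries. Whether these came from separate cultures cannot be told from this check.

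The alternatives were DESeq2 1.42.0 size factors and its Wald test, a filter of at least 10 counts in each library or none, library sizes without the 20 top genes, limma-trend (limma 3.58.1) on log2(FPKM + 1) or on log2(FPKM + 0.1), each library left out, the replicate block, and replicate 3 as the only term. Fits of replicates 1 and 2 alone, with and without the block, were added after seeing the data, as was the blocked fit without the libraries of each number. The tests were tested on simulated data with the same biological coefficient of variation for all genes. Unlike the data here, those simulated for the conditions held no difference of replicate 3.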

Additional observations from a re-analysis of the deposited data

How the results depend on the processing

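Between conditions, 0 genes were called without the block in edgeR or limma under any other filter, normalisation or scale, or with any library left out (range 0 to 0). DESeq2's Wald test called 5 genes, and the replicate block 19. In the alternatives chosen after seeing the data, replicates 1 and 2 alone gave 66 called genes, or 70 with the block, and the blocked fit gave 42, 11 and 70 without the libraries numbered 1, 2 and 3, the last being the same fit as replicates 1 and 2 with the block. The cause of these differences was not tested. Of the other pathway genes, 1 was called with the replicate block, 1 in replicates 1 and 2 alone with or without the block, and 1, 0 and 1 in the blocked fit without the libraries numbered 1, 2 and 3. Among the members, pathway genes and Thada, the block changed the calls of Dusp6, Insrr and Thada alone. Between conditions the signs of Dusp4, Dusp6, Spry2 and Etv5 were the same in all alternatives run. In replicate 3, 2840 to 4243 genes were called over 14 alternatives (3893 as reported) and 22 to 31 pathway genes (25 as reported). All 10 members kept their sign there, and the same 7 were called in each, with Dusp4 as well in 1. On log2(FPKM + 1) by limma, Dusp6, Spry4, Etv4 and Etv5 had smaller values of −2.08, −0.99, −2.29 and −2.34. The lowest count of a member was 27, of Etv4 in Thada-activated replicate 3.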
